A study of Mus musculus with 8 samples.

Results

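Isolated single-summit H3K9me3 regions were peaks of histone H3 lysine 9 trimethylation with no other such peak nearby. A region was counted as isolated when it lay on chromosomes 1 to 19, held 1 peak summit and had its midpoint more than 300 kb from the midpoint of every other H3K9me3 region. This rule picked 697 of the 14515 regions in the table, and 697 of the 13223 on chromosomes 1 to 19. They were compared with the other 10798 single-summit regions of those chromosomes, which had a neighbour within 300 kb and are called neighboured. The remaining 1728 regions of chromosomes 1 to 19 joined several summits. The rule used positions and summit counts, which come from the peak calls of the same libraries, so the distances themselves are a description. The median distance from an isolated region to the nearest other region was 526.3 kb (quartiles 395.2 and 750.9 kb), against 22.7 kb for neighboured regions. The median width was 265 bp, against 274 bp.

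H3K9me2 and H3K9me3 were profiled by chromatin immunoprecipitation and sequencing in SV40-immortalized mouse embryonic fibroblasts (MEFs) derived from C57bl6 mid-gestation embryos. HAT1+/+ and HAT1−/− MEFs gave 2 libraries each per mark, 8 in all. HAT1−/− embryos lack the gene in every cell, and both groups are cells immortalized in culture. Per the study's methods the cells came from 2 embryos of each genotype. The labels tie no library to an embryo. Human Dbt immortalized myoblasts were mixed with the MEFs before immunoprecipitation in all groups as a spike-in. The part of human reads in the counts was not tested, and whether the library totals count mouse reads alone is not given in the sources used here, so every value per library total rests on totals that may include human reads. The H3K9me3 library totals, recovered from the deposited values, were 4198682 and 4622354 reads in HAT1−/− and 5810915 and 5696057 in HAT1+/+. No region of either table overlapped Hat1, so the genotype could not be checked from these regions.

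H3K9me3 is laid down by SETDB1 and the SUV39H enzymes and is bound by HP1 proteins, and it marks constitutive heterochromatin at satellite repeats and silenced retroelements. In mammalian cells most of it forms long domains in gene-poor, AT-rich sequence. Small separate sites are known at single retroelements, at zinc finger gene exons and at imprinted control regions, where sequence-specific KRAB zinc finger proteins recruit SETDB1 through TRIM28. HAT1 acetylates newly made histone H4 before its assembly into chromatin.

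Sequences are printed from RefSeq GRCm38.p6 (the assembly of mm10), plus strand, 5′ to 3′. The first set is shown because it holds features for which single H3K9me3 sites are known. In the Zfp90 exon, capitals mark the coding sequence of the conserved linker between neighbouring C2H2 fingers. In the Peg13 region, capitals mark CG dinucleotides, of which the printed 240 bases held 10.
Zfp90 exon, chr8:106425064-106425281: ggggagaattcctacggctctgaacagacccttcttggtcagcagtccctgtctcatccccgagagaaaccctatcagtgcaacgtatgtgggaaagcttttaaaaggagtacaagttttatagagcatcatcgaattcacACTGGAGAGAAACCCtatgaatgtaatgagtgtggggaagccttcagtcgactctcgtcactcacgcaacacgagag
Peg13, chr15:72810327-72810566: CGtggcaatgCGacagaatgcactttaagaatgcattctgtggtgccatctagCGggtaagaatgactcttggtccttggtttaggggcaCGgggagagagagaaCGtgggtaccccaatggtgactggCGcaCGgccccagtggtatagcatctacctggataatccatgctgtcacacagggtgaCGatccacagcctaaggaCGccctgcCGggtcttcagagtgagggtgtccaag

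Another set shows what kinds of sequence recurred. Regions were grouped into families by blastn alignments of at least 100 bp at 80% identity or more, and 306 of the 697 isolated regions fell into 35 families. For the 2 largest families the member with the most aligned members is printed, and the region on chromosome 13 was added after its values had been seen because it is made of tandem copies, the first of which is in capitals. No repeat annotation was used here. From textbook knowledge the representatives resemble the 5′ end of a LINE-1 element and the long terminal repeat of an IAP retrovirus.
Family 1, chr1:69621484-69621723: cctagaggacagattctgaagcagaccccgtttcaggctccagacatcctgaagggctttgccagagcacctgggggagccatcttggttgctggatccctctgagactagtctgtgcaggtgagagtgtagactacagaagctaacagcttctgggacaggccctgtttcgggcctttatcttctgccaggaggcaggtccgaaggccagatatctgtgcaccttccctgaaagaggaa
Family 2, chr2:58674377-58674616: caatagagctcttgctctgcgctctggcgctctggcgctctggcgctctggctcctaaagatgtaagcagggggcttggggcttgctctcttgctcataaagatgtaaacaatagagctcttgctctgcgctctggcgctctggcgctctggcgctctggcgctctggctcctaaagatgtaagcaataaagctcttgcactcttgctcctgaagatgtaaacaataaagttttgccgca
Tandem copies, chr13:60442416-60442545: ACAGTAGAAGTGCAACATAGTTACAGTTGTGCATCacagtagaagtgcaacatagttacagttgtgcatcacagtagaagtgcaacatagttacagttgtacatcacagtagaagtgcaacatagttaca
Family 1 held 121 isolated regions (17.4%) against 31.6% of the neighboured ones. Family 2 held 41 (5.88% against 4.36%) and family 3 held 31 (4.45% against 1.69%). Isolated regions therefore held a smaller share of family 1 and larger shares of families 2 and 3.

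H3K9me3 signal at isolated regions was low and close to that of neighboured regions. The median count was 14 and 19 reads in the HAT1−/− libraries and 14 and 13 in the HAT1+/+ libraries, against 17, 20, 11 and 11 at neighboured regions. In RPM (the count plus 1, scaled by the library total) the medians were 3.57 and 4.33 in HAT1−/− and 2.58 and 2.46 in HAT1+/+. At neighboured regions they were 4.29 and 4.54 in HAT1−/− and 2.07 and 2.11 in HAT1+/+. Thus isolated regions lay below neighboured ones in both HAT1−/− libraries and above them in both HAT1+/+ libraries. The difference between the medians of log2 RPM, isolated minus neighboured, was −0.26 and −0.07 in HAT1−/− and 0.32 and 0.22 in HAT1+/+. Over the 4 libraries it averaged 0.053 ± 0.268 (SD, n = 4), an average over opposite signs in the genotypes. An exact two-sided sign-flip test gave p = 0.875. Its smallest possible p is 0.125, so it could not decide whether the classes differ in level.

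**Figure D1:**
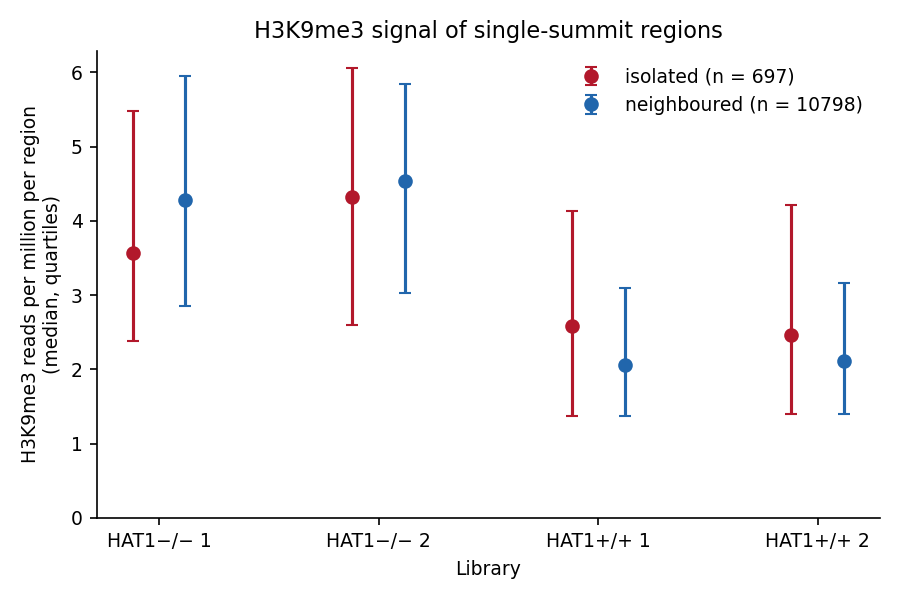
H3K9me3 signal in RPM per region (vertical axis, linear) in each of the 4 libraries (horizontal axis) for isolated (red, 697) and neighboured (blue, 10798) single-summit regions. Points are medians over regions and bars run from the lower to the upper quartile. The isolated medians are 3.57 and 4.33 in HAT1−/− and 2.58 and 2.46 in HAT1+/+, so the gap between genotypes is narrower than at neighboured regions.

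The spread of levels was wider among isolated regions. Their mean RPM over the 4 libraries had a median of 3.29 and ran from 1.88 at the 5th to 6.76 at the 95th percentile, against 3.31, 2.12 and 5.76 at neighboured regions. The highest mean count of an isolated region was 128 reads, and 49 isolated regions had a mean of 30 reads or more. Counts of 0 occurred at 1 and 2 isolated regions in the HAT1−/− libraries and at 6 and 19 in the HAT1+/+ libraries. All isolated regions together held 0.273% and 0.305% of the HAT1−/− reads and 0.199% and 0.207% of the HAT1+/+ reads.

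The 5 isolated regions with the highest mean count were spread over 5 chromosomes. The region in an intron of the predicted gene Gm20388 (chr8:121688077-121688520) had counts of 81 and 128 in HAT1−/− and 135 and 167 in HAT1+/+. The region 17.9 kb from Blm, the gene of a RecQ helicase (chr7:80552997-80553255), had 86 and 115 in HAT1−/− and 119 and 105 in HAT1+/+. In an intron of Rin2, which encodes an activator of RAB5 (chr2:145866430-145866667), the counts were 72 and 44 in HAT1−/− and 84 and 103 in HAT1+/+. These 3 regions had the higher mean raw count in HAT1+/+, whose libraries were deeper. Counts of 55 and 57 in HAT1−/− and 94 and 63 in HAT1+/+ were found 16.5 kb from Cenpf, the gene of a kinetochore protein (chr1:189623739-189624131). The region 7.49 kb from Ccne2, which encodes cyclin E2 (chr4:11183163-11183862), had 43 and 78 in HAT1−/− and 48 and 50 in HAT1+/+. In raw counts the Gm20388, Rin2 and Cenpf regions had both HAT1−/− libraries below both HAT1+/+ libraries. In RPM the genotypes overlapped at these 3, while the Blm and Ccne2 regions lay higher in both HAT1−/− libraries. By edgeR or DESeq2 0 of the 5 passed the test of change described below. The edgeR test used the TMM factors described below, which place HAT1−/− lower against HAT1+/+ than RPM does. On that scale, and not in RPM, 4 of the 5 were lower at an unadjusted edgeR p under 0.05. Of all regions 8.16% were lower at that threshold, and 0.971% at the adjusted one.

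Libraries of one genotype differed widely at these regions. The regions come from peak calls on the same libraries, and how far this shapes the agreement between libraries was not tested. The 2 HAT1+/+ libraries differed by more than 2-fold in RPM at 230 isolated regions (33.0%, and 33.0% of neighboured ones). The 2 HAT1−/− libraries did so at 283 (40.6% against 36.3%). This gap of 4.26 percentage points was 1.38 among regions with a mean count of 10 or more, 3.77 within strata of mean count and 6.51 with a 500 kb limit. Isolated regions had the larger share in 4 of 5 strata, and at 30 reads or more the order was the opposite (4.08% of 49 isolated against 9.76% of 410 neighboured regions). Pearson's r of log2 RPM across regions, a description since all regions share the same libraries, was 0.518 between the HAT1+/+ libraries and 0.118 between the HAT1−/− libraries, and it ran from 0.207 to 0.296 between libraries of different genotype. At neighboured regions it was 0.330 and 0.067, whereas at regions with several summits it was 0.818 and 0.934. The edgeR estimate of the biological coefficient of variation was 48.0% at isolated and 45.4% at neighboured regions.

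Isolated regions were less uniformly higher in HAT1−/− than neighboured regions were. Per library total, the log2 fold change of HAT1−/− over HAT1+/+ (the difference of mean log2 RPM) had a median of 0.59 at isolated regions, with 501 higher and 196 lower. The median was 1.04 at neighboured regions, 0.69 at regions with several summits and 1.00 over all 14515 regions. Higher regions made up 71.9% of isolated, 87.8% of neighboured and 87.1% of all regions. The library medians of log2 RPM at isolated regions were 1.98 ± 0.20 in HAT1−/− and 1.33 ± 0.05 in HAT1+/+ (SD, n = 2 each, exact two-sided permutation p = 0.333, the smallest that 2 against 2 libraries allow).

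The sign of the change at isolated regions depended on the scaling, while its place below neighboured regions did not. With TMM factors (trimmed mean of M-values, which set the bulk of regions to no change) the median was −0.43 at isolated, 0.03 at neighboured, −0.32 at several-summit and −0.01 over all regions, and 34.6% of isolated regions were higher. With the reads in regions as library size it was −0.07 at isolated, 0.39 at neighboured and 0.35 over all regions. In each scaling the isolated median lay 0.46 below the neighboured one, since a scaling moves all regions alike. Over libraries, the isolated-minus-neighboured difference of medians was 0.44 lower in HAT1−/− than in HAT1+/+ on the log2 scale, with both HAT1−/− libraries below both HAT1+/+ libraries (exact two-sided permutation p = 0.333, the smallest possible).

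Complete separation of the genotypes also depended on the scaling. Per library total, both HAT1−/− libraries lay above both HAT1+/+ libraries at 269 isolated regions (38.6%), against 59.4% of neighboured and 58.7% of all regions. Both HAT1−/− libraries lay below both HAT1+/+ libraries at 43 isolated regions (6.17%), against 2.07% of neighboured and 2.54% of all regions. A HAT1+/+ library was the highest of the 4 at 239 isolated regions (34.3%) and at 17.0% of neighboured ones. With TMM factors both HAT1−/− libraries lay above at 75 isolated regions (10.8%, against 15.9% of neighboured) and below at 244 (35.0%, against 17.5%), and a HAT1+/+ library was the highest at 56.5% (against 42.6%). In both scalings fewer isolated than neighboured regions had both HAT1−/− libraries above, and more had both below. Both lay below at 5.21% of regions with several summits per library total and at 37.7% with TMM factors, close to the isolated shares. Both lay above at 58.0% of regions with several summits per library total, close to the neighboured share and not to the isolated one.

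The change did not fall further with distance beyond the limit of the rule. Median log2 fold changes per library total were 0.97 for single-summit regions with the nearest region up to 10 kb away, 1.08 from 10 to 30 kb, 1.09 from 30 to 100 kb and 0.91 from 100 to 300 kb. Among isolated regions they were 0.56 from 300 to 600 kb, 0.59 from 600 to 1000 kb and 0.56 above 1000 kb. The isolated regions nearest to the limit lay on chromosome 5 (chr5:12782141-12782478, nearest region at 300.6 kb) and at a pair of sites on chromosome 18. The chromosome 5 region had counts of 2 and 28 in HAT1−/− and 10 and 22 in HAT1+/+. At chr18:8163384-8163684 (300.9 kb) the counts were 23 and 21 in HAT1−/− and 25 and 19 in HAT1+/+, and at chr18:20163150-20163483 (301.3 kb) they were 26 and 28 against 11 and 7. The closest ones outside it were chr9:80064775 with a neighbour at 299.7 kb (28 and 38 in HAT1−/−, 21 and 20 in HAT1+/+), and a pair on chromosome 2 at 299.2 kb from each other. That pair held 13 and 28 against 16 and 17 reads at 159815066, and 279 and 365 against 545 and 496 reads at 160114289.

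**Figure D2:**
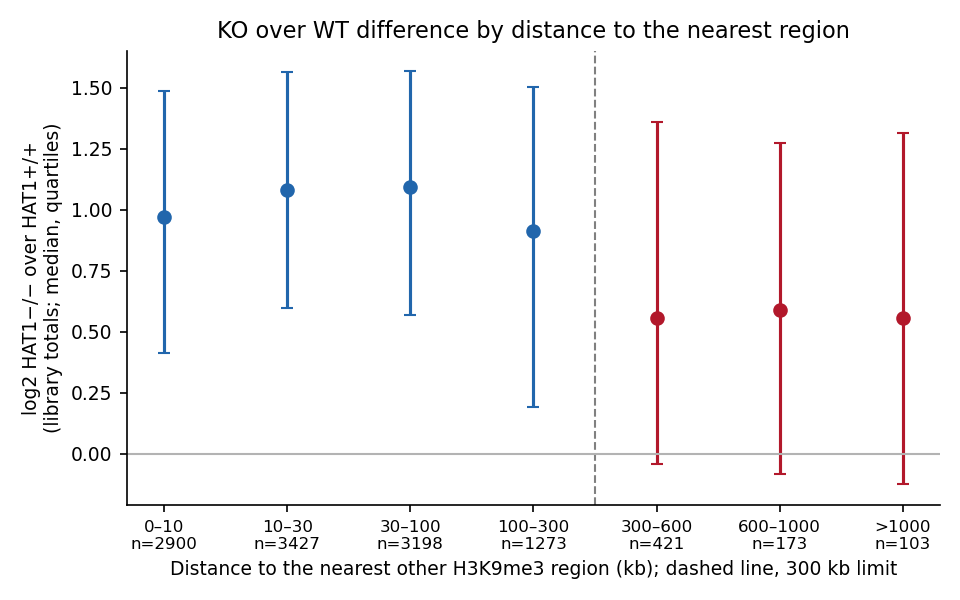
Log2 fold change of HAT1−/− over HAT1+/+ per library total (vertical axis) for single-summit regions binned by the distance to the nearest other H3K9me3 region in kb (horizontal axis, with the number of regions in each bin). Points are medians, bars are quartiles and the dashed line is the 300 kb limit. Medians are 0.91 to 1.09 left of the limit and 0.56 to 0.59 right of it.

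The change followed the base composition of the surroundings in both classes. GC content of the 300 kb on each side had a median of 42.8% around isolated regions and 37.9% around neighboured ones. From surroundings under 38% GC to those of 46% or more, the median log2 fold change per library total of isolated regions went from 1.34 (20 regions) through 0.96, 0.70, 0.53 and 0.41 to 0.30 (132 regions). Neighboured regions went from 1.14 (5679 regions) through 1.04, 0.81, 0.63 and 0.38 to 0.25 (157 regions). Both kinds of region thus occurred in every class, and 20 of the 697 isolated but 5679 of the 10798 neighboured regions lay in the class under 38% GC. Averaged within these 6 GC classes, which were chosen after the data had been seen, the isolated-minus-neighboured difference between the genotypes was 0.022 in place of −0.44 (exact two-sided permutation p = 0.667). Averaged over the classes, isolated regions differed from neighboured ones in the 4 libraries by −0.18 and −0.12 in HAT1−/− and −0.14 and −0.20 in HAT1+/+ (log2 RPM).

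**Figure D3:**
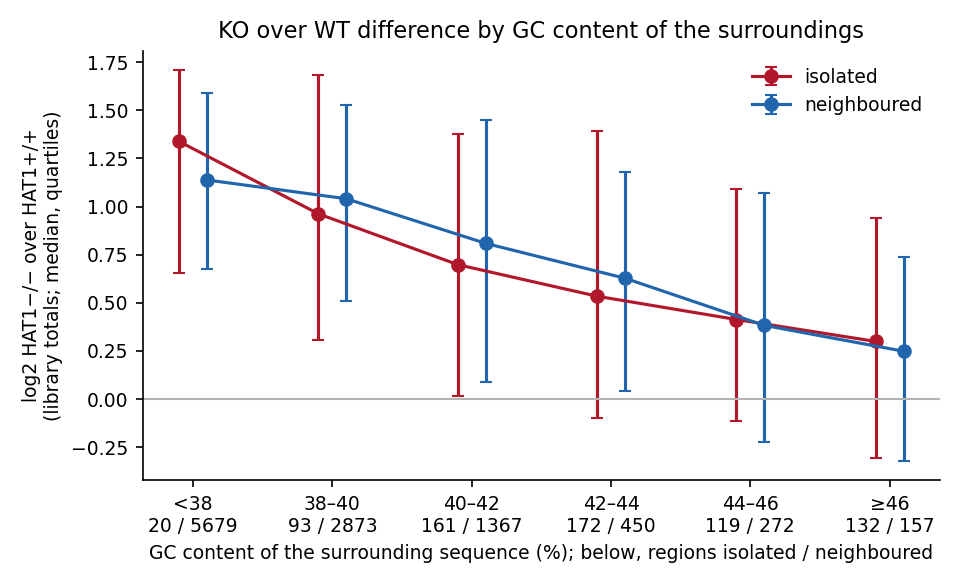
Log2 fold change of HAT1−/− over HAT1+/+ per library total (vertical axis) against the GC content of the 300 kb on each side in percent (horizontal axis, 6 classes with the numbers of isolated and neighboured regions). Points are medians and bars are quartiles. The medians fall from 1.34 to 0.30 at isolated (red) and from 1.14 to 0.25 at neighboured regions (blue).

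The trend with GC content lay mainly in the HAT1+/+ libraries. From the lowest to the highest GC class the median RPM of isolated regions was 1.12 and 3.10 in the first HAT1+/+ library and 1.93 and 3.69 in the second. In HAT1−/− it was 3.33 and 3.57 in the first library and 4.00 and 4.87 in the second. Across the 697 isolated regions Spearman's rho of the fold change was −0.217 with surrounding GC content and 0.037 with the GC content of the region itself (across regions, descriptive). It was −0.367 with the mean count, which shares its reads with the fold change. The median fold change of isolated regions went from 1.47 at a mean count under 10 (93 regions) to 0.16 at 30 or more (49 regions), and that of neighboured regions from 1.57 to 0.39.

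The lower fold change of isolated regions was found on nearly every chromosome and in most subsets that were not formed by surrounding GC content. Chromosomes held 17 to 61 isolated regions each, 3.59% to 13.6% of their single-summit regions. The isolated median lay below the neighboured one on 18 of 19 chromosomes, with differences from −0.87 to 0.015. In families 1 and 2 it was lower by −0.45 and −0.41, in regions of no family by −0.42 and in regions made of over 90% single-copy 31-base words by −0.40. In family 3 the difference was 0.068 (medians of 0.69 at 31 isolated and 0.63 at 182 neighboured regions). By surrounding GC content it was −0.096 under 40%, −0.071 from 40% to 44% and 0.019 at 44% or more. Regions over a gene differed by −0.40 and those outside genes by −0.47.

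Few isolated regions passed the test of a change between genotypes. The test was the quasi-likelihood test of edgeR on the counts with TMM factors, fitted to all 14515 regions with Benjamini-Hochberg adjustment. At an adjusted p (FDR) under 0.05 it called 1 isolated region higher in HAT1−/− (0.143%, against 0.0276% of all regions) and 5 lower (0.717%, against 0.971%). At an unadjusted p under 0.05 there were 4 higher (against 0.985% of all regions) and 114 lower (16.4%, against 8.16% of all and 6.67% of neighboured regions). The share called lower is near the background, and the share called higher rests on 1 region. With library totals in place of TMM factors the same test called 3 isolated regions higher (0.785% of all regions) and 0 lower (0.103%). Without the first HAT1+/+ library it called 0 higher and 14 lower (0.248% and 2.85% of all regions), and without the second 0 higher and 12 lower (0.0689% and 1.25%). Without the first HAT1−/− library it called 0 isolated regions, and 3 regions in all. Without the second it called 1 isolated region lower of 5 regions in all. A fit without a library leaves 1 sample in that group, which is assumed to vary like the other genotype.

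At 3 of the 6 called regions the 2 libraries of each genotype had similar counts. The region in an intron of Vps13a, the gene of a lipid transfer protein (chr19:16737377-16737792), had 18 and 30 reads in HAT1−/− and 0 and 0 in HAT1+/+. It was at least 5.16-fold higher in HAT1−/− on TMM-scaled counts against a floor of 3 counts in each HAT1+/+ library (edgeR FDR = 0.0377). The region in an annotated intron of Fgfr2, a fibroblast growth factor receptor (chr7:130362696-130363001), had 22 and 24 reads in HAT1−/− and 60 and 59 in HAT1+/+. It fell by 1.99 on the log2 scale (SE 0.53, edgeR FDR = 0.0259), it lay 2625 kb from the nearest other region, and its sequence was soft-masked throughout. The region near the predicted gene Gm33684 (chr13:44153857-44154258) had 3 and 6 reads against 30 and 22 and fell by 3.14 on the log2 scale (SE 0.79, edgeR FDR = 0.0117). Leaving out any 1 library ended the call at Vps13a (edgeR FDR 0.123 to 0.228) and near Gm33684 (edgeR FDR 0.133 to 0.595), while the counts of the remaining libraries stayed on the same sides and the Gm33684 log2 fold change stayed between −3.56 and −2.84. The call at Fgfr2 was lost without the first or the second HAT1−/− library, with log2 fold changes of −2.05 (edgeR FDR = 0.770) and −1.93 (edgeR FDR = 0.693). With library totals in place of TMM factors only Vps13a of the 6 called regions passed. The log2 fold changes were then −0.98 at Fgfr2 and −2.13 near Gm33684.

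At the other 3 called regions the second HAT1+/+ library stood far above the first. At chr13:60442358-60442775, which holds the tandem copies of 35 bases printed above, the counts were 0 and 2 in HAT1−/− and 9 and 38 in HAT1+/+. The ratio of HAT1−/− to HAT1+/+ was 0.0275 on TMM-scaled counts (exact 95% counting interval 0.00323 to 0.105, edgeR FDR = 0.00166). An intron of Exoc4, the gene of an exocyst subunit (chr6:33618577-33618954), had 4 and 10 reads against 6 and 48 (log2 fold change −2.54, edgeR FDR = 0.0478). The Exoc4 region was also repetitive, with 64.5% of bases equal to the base 37 positions on. That share was 94.3% at 35 positions in the region with the printed tandem copies. At the start of Krt13, a keratin of stratified epithelia (chr11:100121001-100121476), the counts were 9 and 7 against 7 and 54 (log2 fold change −2.50, edgeR FDR = 0.0333). With library totals in place of TMM factors the log2 fold changes of these 3 regions were −4.05, −1.57 and −1.54. Without the second HAT1+/+ library the log2 fold changes were −3.70, −0.48 and −0.45 in this order and none passed (edgeR FDR 0.384, 0.9999 and 0.9999). Without the first HAT1−/− library none of the 3 passed either (log2 fold changes −4.17, −2.13 and −2.81, edgeR FDR 0.306, 0.770 and 0.586). Without the second HAT1−/− library Exoc4 and Krt13 did not pass (log2 fold changes −3.18 and −2.21, edgeR FDR 0.397 and 0.688). The genotypes overlapped at the Exoc4 and Krt13 regions and not at the one with tandem copies. The chromosome 13 and Exoc4 regions also overlapped an H3K9me2 region.

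**Figure D4:**
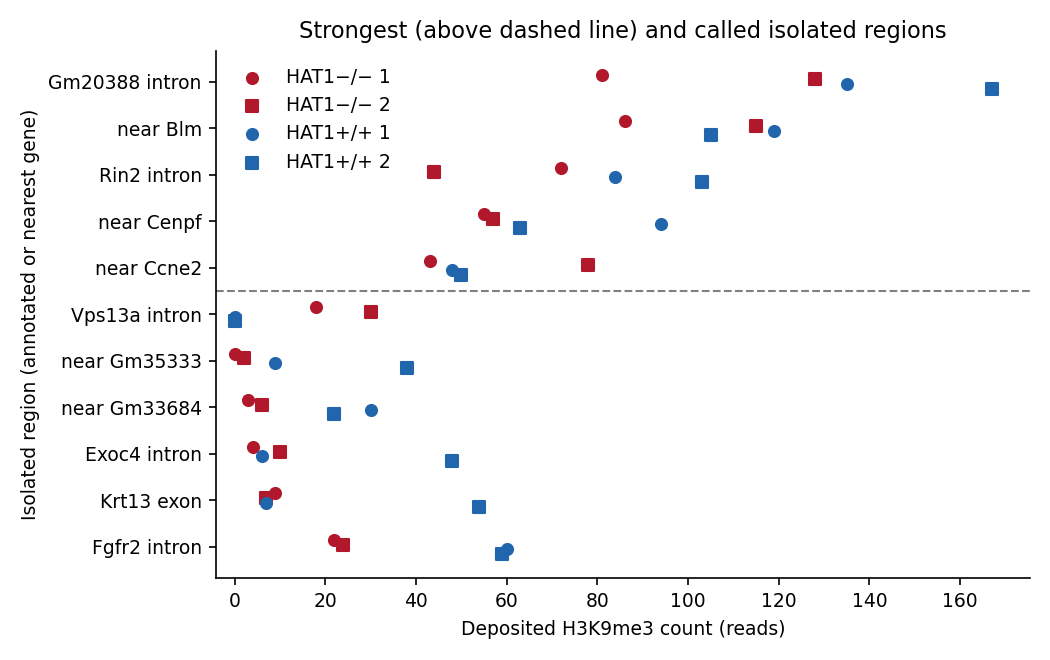
Deposited H3K9me3 read counts (horizontal axis, linear) in the 2 HAT1−/− (red) and 2 HAT1+/+ (blue) libraries at the 5 isolated regions with the highest mean count (above the dashed line) and the 6 called changed (below it), named by the annotated or nearest gene. Circles are first and squares second libraries. The Fgfr2 counts are 22 and 24 against 60 and 59, whereas at Exoc4 and Krt13 a single HAT1+/+ library, with 48 and 54 reads, stands apart.

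H3K9me2 was found at few isolated regions. An H3K9me2 region overlapped 24 of the 697 (3.44%, Wilson 95% interval 2.32% to 5.07%), against 229 of the neighboured ones (2.12%, 1.87% to 2.41%) and 24.8% of regions with several summits. The intervals cover counting error over regions, which are not independent replicates. With a neighbour limit of 100 kb the shares were alike (2.18% of isolated and 2.20% of neighboured regions). Within 10 kb the order was the opposite, with an H3K9me2 region near 3.87% of isolated and 5.55% of neighboured regions. Isolated regions with H3K9me2 had a higher H3K9me3 level, with a median mean RPM of 4.55 against 3.26 without it. Their median H3K9me3 log2 fold change per library total was −0.08, against 0.64 at the 673 without H3K9me2, and against 0.78 at the 229 neighboured regions with it.

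The H3K9me2 counts at those 24 regions had medians of 34 and 29.5 reads in HAT1−/− and 31.5 and 42.5 in HAT1+/+. Over all H3K9me2 regions the medians were lower in each library, at 18 and 23 in HAT1−/− and 16 and 16 in HAT1+/+. The median H3K9me2 log2 fold change per library total was 0.11, against 0.75 over all 1983 H3K9me2 regions, and 14 of the 24 were higher in HAT1−/−. With TMM factors it was −0.57 against 0.08. The fold changes of H3K9me2 and H3K9me3 had the same sign at 15 of the 24 per library total.

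One of these 24 passed the test for H3K9me2, and it fell. By edgeR 0 of 24 were higher (0.202% of all H3K9me2 regions) and 1 of 24 was lower (1.61% of all H3K9me2 regions) at FDR under 0.05, with 6 changed at an unadjusted p under 0.05 (25%, against 9.23% of all H3K9me2 regions). DESeq2 gave an adjusted p to 1 of the 24 and called it, and called 21 of 215 over all. That region, chr7:80553003-80553244 near Blm, had 103 and 109 H3K9me2 reads in HAT1−/− and 204 and 183 in HAT1+/+. Its log2 fold change was −1.10 (edgeR FDR = 0.0120). With library totals in place of TMM factors it was −0.43 (edgeR FDR = 0.423). The call was also lost without the first (−1.10, edgeR FDR = 0.801) or the second HAT1−/− library (−1.11, edgeR FDR = 0.914). At the intron of Proca1 on chromosome 11 the H3K9me2 counts were 68 and 69 against 96 and 101, and the H3K9me3 counts were 30 and 41 against 60 and 76. At the intron of Camk2g, a calmodulin-dependent kinase gene on chromosome 14, they were 60 and 51 against 124 and 68 for H3K9me2 and 16 and 29 against 42 and 50 for H3K9me3. In both introns all HAT1−/− counts lay below the HAT1+/+ counts of the same mark. In RPM the order in the 2 introns held for H3K9me3 but not for H3K9me2, and neither intron region passed the test for either mark.

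Isolated regions lay closer to genes than neighboured ones. A gene was overlapped by 341 (48.9% against 27.1%) and an exon by 7.46% (against 5.02%). The share over a gene was also higher among neighboured regions farther from the nearest region. It was 38.4% at 100 to 300 kb, against 24.9% up to 10 kb. The nearest protein-coding start was at a median of 56.1 kb (against 280.4 kb), and the median number of protein-coding starts within 300 kb was 4 (against 1). Fewer of their own bases were soft-masked, with a median of 57.9% against 71.3%. Over 90% of 31-base words were single-copy in 40.6% of isolated and 30.6% of neighboured regions. The shares with a median of 10 or more copies per word were alike (13.9% and 14.3%). CpG dinucleotides reached over 0.6 of their expected number in 57 isolated regions (8.18%, against 4.54%).

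Of the 5 gene lists, that of zinc finger genes, with 456 genes, met the most isolated regions, while imprinted (48 genes) and germline genes (49) met 1 each. Within 5 kb of a zinc finger gene lay 11 isolated regions, of which 5 were higher in HAT1−/− per library total. Of all isolated regions 71.9% were higher, and of neighboured ones 87.8%. These 11 made up 1.58% of isolated regions, and regions near a zinc finger gene made up 0.982% of neighboured ones. By edgeR 0 of the 11 were called (0.971% of all regions were called lower) and 4 were lower at an unadjusted p under 0.05 (8.16% of all regions), and DESeq2 called 0 of the 3 with an adjusted p. Their median log2 fold change was −0.03 per library total, against 0.59 for all isolated regions. The exon of Zfp90 (chr8:106425064-106425610), a KRAB zinc finger gene, had 30 and 46 reads in HAT1−/− and 87 and 54 in HAT1+/+. An exon of Zfp663 (chr2:165352373-165352678) had 38 and 29 against 27 and 23. In RPM the genotypes overlapped at Zfp90, and at Zfp663 both HAT1−/− libraries lay above both HAT1+/+ libraries. An intron of Zfp106, which encodes an RNA-binding zinc finger protein, had 42 and 43 against 49 and 51, and in RPM both HAT1−/− libraries lay above both HAT1+/+ libraries (10.2 and 9.52 against 8.60 and 9.13). At least 2 of the conserved linkers between fingers were found in 3 isolated regions (0.430%) and in 10 neighboured ones (0.0926%), and the whole Zfp90 region held 4.

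The other lists met few isolated regions. Peg13, an imprinted noncoding RNA gene within Trappc9 (chr15:72810309-72810573), had 17 and 9 reads in HAT1−/− and 43 and 13 in HAT1+/+, with overlap between the genotypes. Tex101, a germ cell gene on chromosome 7, had 11 and 21 against 3 and 3, and Pcdh15, a cadherin gene of the inner ear on chromosome 10, had 27 and 16 against 4 and 7. Both lay higher in HAT1−/− with no overlap, without passing the test. Olfactory, vomeronasal and taste receptor genes lay within 5 kb of 0 isolated regions and of 361 neighboured ones (3.34%).

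Protein-coding gene starts were overlapped or closely flanked (within 500 bp) by 13 isolated regions (1.87% against 1.07%), of which 7 were higher in HAT1−/− per library total (87.1% of all regions). By edgeR 1 of the 13 was called, lower, at Krt13 (0.971% of all regions), and that call was lost without the second HAT1+/+ library (log2 fold change −0.45). Thsd7b had 35 and 59 reads in HAT1−/− and 35 and 38 in HAT1+/+. Dnah10, which encodes a dynein heavy chain of cilia, had 25 and 21 against 24 and 42. Fat3, an atypical cadherin gene, had 35 and 19 against 12 and 9, and Kbtbd12 had 8 and 15 against 38 and 15. In RPM both HAT1−/− libraries lay above both HAT1+/+ libraries at Thsd7b and Fat3, and the genotypes overlapped at Dnah10 and Kbtbd12.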

How the data were processed

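Per the study's methods and the submitters' processing notes, the authors aligned reads to mouse build mm10 with BWA 0.7.12, called peaks with MACS2 2.1.0 and named DiffBind for differential analysis. Whether peaks were called per library or on pooled reads, which duplicate filters were used and whether the deposited values were scaled by the human spike-in are not given in the sources used here. The deposited read counts are not normalized. The deposited RPM equals the count plus 1 per library total (within 0.000491%), which gave the totals. Deposited fold enrichments, log2 fold changes, p-values and q-values are the authors' own comparison and were not used. Repeat rows were removed (314 of 14829 for H3K9me3, 62 of 2045 for H3K9me2). Deposited starts were read as counted from 0 and are printed plus 1.

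Changes were tested with edgeR 4.0.16 in R 4.3.3 (glmQLFit, glmQLFTest, library totals, TMM factors, no filter) over all regions of a mark, with DESeq2 1.42.0 as an alternative. Fold changes outside edgeR used a pseudocount of 1. Overlap meant at least 1 bp. Library medians were compared by exact two-sided permutation. Sequence came from RefSeq GRCm38.p6, genes from GENCODE M21, families from blastn 2.17.0, and other steps used Python 3.11.15 with scipy 1.17.1. The tests were tried on simulated data. Some sequences are not reported here.

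Regions, gene lists and tests were chosen with earlier results of these data known. Named regions were the 5 with the highest mean count, up to 5 called per direction, the 5 strongest with H3K9me2, up to 3 per gene list, the 3 nearest the distance limit on each side and the 5 strongest at gene starts. Intervals and floors cover counting error only.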

Additional observations from a re-analysis of the deposited data

How the results depend on the processing

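The count of called isolated regions (6) moved with most settings. It was 3 with library totals alone (all higher), 2 with reads in regions as library size, 1 with DESeq2, where 41 isolated regions had an adjusted p, and 13 of 1970 regions with a 100 kb limit. It lay between 0 and 14 when a library was left out. Of the 6, 1 was kept without the second HAT1−/− or the second HAT1+/+ library, 0 without the first HAT1−/− and 4 without the first HAT1+/+ library. The H3K9me2 count (1 of 24) was 0 with library totals, 2 with a 100 kb and 0 with a 500 kb limit, and between 0 and 2 when a library was left out. The median log2 fold change of isolated regions (−0.43 with TMM) was 0.59 with library totals, −0.07 with reads in regions, −0.18 at 100 kb and between −0.59 and −0.34 without a library. The genotype difference in isolated minus neighboured medians (−0.44) was 0.022 within GC classes, added after the data were seen, −0.20 at 100 kb and −0.54 to −0.34 without a library. The level difference (0.053) lay between −0.037 and 0.158 without a library, and was −0.037 without the first and −0.0038 without the second HAT1+/+ library. A limit of 100 kb gave 1970 isolated regions, 43 with H3K9me2, and 500 kb gave 373 with 12. What lies behind these shifts was not tested. The difference in the share of regions over 2-fold apart between HAT1+/+ libraries was −0.017 percentage points, and 0.405 at 100 kb, −0.871 at 500 kb, −0.718 within strata of mean count and −0.445 at a mean count of 10 or more.

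Whether replicate numbers pair samples is not given in the labels. The deviations of same-numbered libraries correlated at 0.00402 over all regions and at 0.0613 over the 1507 with a mean count of 30 or more. Most counts were low, so these values cannot exclude a pairing. With the replicate block 3 isolated regions were called, all lower. Vps13a (edgeR FDR = 0.0674), Exoc4 (0.214) and Krt13 (0.260) were not, with the fold change at Vps13a as large. The log2 fold changes at Exoc4 and Krt13 were −2.28 and −2.09, against −2.54 and −2.50 without the block. A block cannot move the median difference (−0.43) or the class difference (−0.44) in this balanced design.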
